A study of Mus musculus with 16 samples.

Results

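The Oct4 S151M private sites are 82048 genomic positions at which the ChIP-seq library of the mutant Oct4 S151M had a peak summit and none of the other 12 summit lists of the series had a summit within 100 bp. They were chosen by that rule alone among the 101151 Oct4 S151M summits on chromosomes 1 to 19, X and Y, so that 81.1% of the summits of this library were private and 19103 were shared with at least 1 other list. The absence of a neighbouring summit in the other libraries is therefore a property of the rule and not a result. The series listed 227116 summits in all, of which 101170 came from Oct4 S151M.

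ChIP-seq sequences the DNA fragments that an antibody pulls down with a chromatin protein. Fibroblasts from mouse embryos that carry an Oct4-GFP reporter (OG2 MEFs) were transduced with retroviruses for Sox2, Klf4 (together SK) and 1 POU factor and kept in iCD1, a chemically defined reprogramming medium. The POU factor was Oct4 S151M here, collected at day 1 after the change into iCD1 and precipitated with an Oct4 antibody. The other 12 lists were Oct4-SK precipitated with the Oct4 antibody at days 1, 5 and 7, Oct4defSox2-SK (an Oct4 with a mutated Sox2 interface) with the Oct4 antibody at days 1 and 5, Oct6 M151S-SK with an Oct6 antibody at day 1, and Sox2 precipitated from Oct4-SK, Oct6-SK and Oct4defSox2-SK at days 1 and 5. All of these cells carried exogenous Sox2 and Klf4 and each group was 1 library. ChIP gives no expression values, so the identity of the cells could not be checked against marker genes.

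POU factors hold DNA with 2 tethered domains, each of which reads a part of the octamer. A single molecule can bind the octamer, a pair with Sox2 binds the composite SoxOct element, and pairs of POU factors bind either PORE, in which the octamers overlap in a spread arrangement, or MORE, the more palindromic element made of a repeated short half-site. The exchanged residue, a serine replaced by the methionine of Oct6, lies where the partners of the MORE homodimer meet, and Oct6 is among the POU factors known for binding MORE.

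The strongest private sites with an exact MORE or MORE+1 are printed first because they carry the main pattern of the data. MORE was searched as ATGCATATGCAT and MORE+1, which has a free base between the half-sites, as ATGCATNATGCAT. The lines give the mm10 plus strand from RefSeq GRCm38.p6, with the motif in capitals.
Maob intron, chrX:16766287-16766338: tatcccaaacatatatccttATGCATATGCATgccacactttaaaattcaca
Intergenic, chr3:63570639-63570690: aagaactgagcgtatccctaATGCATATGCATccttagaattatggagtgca
Cntnap2 intron, chr6:46174197-46174248: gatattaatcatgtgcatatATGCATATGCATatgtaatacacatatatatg
Intergenic, chr8:103464915-103464967: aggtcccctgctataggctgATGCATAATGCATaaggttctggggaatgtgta
Lrrtm4 intron, chr6:80528439-80528491: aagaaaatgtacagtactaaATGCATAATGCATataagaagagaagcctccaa
Intergenic, chr4:25439239-25439291: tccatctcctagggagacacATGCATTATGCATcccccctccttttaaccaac
The fold enrichment over the local background at these summits was 122 in Maob, 119 at the chromosome 3 site and 112 in Cntnap2 for exact MORE. For exact MORE+1 it was 105 at the chromosome 8 site, 95.2 in Lrrtm4 and 90.4 at the chromosome 4 site. The motif centre lay between -11 and 10.5 bp from the summit at all 6, and the nearest summit of any other library was between 8784 and 36725 bp away. Maob encodes a monoamine oxidase, Cntnap2 a neuronal adhesion protein and Lrrtm4 a synaptic membrane protein.

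MORE was the most frequent POU dimer element at the private sites. A match to MORE or MORE+1 with at most 1 mismatch lay within 100 bp of the summit at 11691 private sites (14.2%, Wilson 95% interval 14.01 to 14.49) and at 1141 shared sites (5.97%, 5.65 to 6.32). Private sites thus exceeded shared sites by 8.28 percentage points (Newcombe 95% interval 7.86 to 8.68). The intervals here and below cover counting error among the sites of 1 library and say nothing of replicate cultures, of which there were none. In windows of the same length 2 kb to either side of the private sites the share was 0.333%, and in all 13171266 windows of 201 bp on these chromosomes without unknown bases it was 0.290%. MORE itself accounted for 11.3% of the private sites and MORE+1 for 3.08%, against 0.216% and 0.0760% of all windows. Exact copies were found at 1216 private sites for MORE (1.48%) and at 252 for MORE+1 (0.307%), against 103 (0.539%) and 14 (0.0733%) of the shared sites.

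The elements of Oct4 with Sox2 and of Oct4 alone were less frequent at private than at shared sites. The rule itself puts sites near summits of the Oct4 and Sox2 lists into the shared set. Of the shared sites 87.5% lay near a summit of another Oct4-antibody list. The differences are therefore not independent of the rule, and its part in them was not tested. SoxOct, searched on both strands as CATTGTNATGCAAAT with up to 2 mismatches, was found at 1.59% of private and 5.52% of shared sites, a difference of -3.93 points (-4.27 to -3.60), with 0.289% of all windows. The octamer ATGCAAAT, which is contained in both SoxOct and PORE and also in the MORE variant that carries A at position 6, was present at 5.95% of private and 10.5% of shared sites, a difference of -4.59 points (-5.06 to -4.13), with 1.74% of all windows. PORE, searched as ATTTGAAATGCAAAT with up to 2 mismatches, was at 0.871% of private and 1.31% of shared sites. The share of PORE among all windows, 1.13%, was above that of the private sites. Sites with none of these 5 elements made up 79.1% of the private and 80.0% of the shared sites, against 96.7% of all windows.

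The question was then turned around, from the share of sites with the motif to the share of motif copies with a site. On these chromosomes the reference held 1624 exact copies of MORE, and 1259 of them (77.5%, 75.4 to 79.5) lay wholly inside the 201 bp around a private Oct4 S151M summit. With the shared summits added, 1371 copies (84.4%) had an Oct4 S151M summit. The same copies had a summit in 2.96% of cases for Oct4 and 5.79% for Oct4defSox2 at day 1, lists that hold 8216 and 31070 summits, and only 1 copy had one of Oct6 M151S. These lists are of unequal length, and the values are given side by side without a test. Of the 413 exact copies of MORE+1, 253 (61.3%, 56.5 to 65.8) had a private summit. For the 63 exact copies of SoxOct, 6 (9.52%) had a private summit and 20 (31.7%) any Oct4 S151M summit, whereas of the 1699 exact copies of PORE 0.235% had a private summit.

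Exact MORE was occupied both inside and between genes and in and outside repeats. The private share was 78.9% of 701 exact copies in introns and 76.8% of 891 between genes, a difference of 2.12 points whose interval, -2.02 to 6.18, includes 0. With shared summits added the shares were 88.0% and 81.4%, a difference of 6.65 points (3.09 to 10.1). Copies in soft-masked sequence, which the reference marks as repeats or low complexity, had a private summit in 79.7% of 1221 cases, against 71.0% of the 403 others, a difference of 8.72 points (3.89 to 13.8). Among the chromosomes other than Y the share ran from 65.5% of 58 copies on chromosome 17 to 91.2% of 34 on chromosome 19.

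Occupancy of MORE differed with the base that was changed. Since MORE is a palindrome, its single changes fold into 18 variants, named by the base of MORE, the position from 1 at the 5′ end, and the new base. The variants below are the 4 most often and the 4 least often occupied by private sites among those with at least 500 copies, with the changed base in capitals.
G3A: atAcatatgcat
A1T: Ttgcatatgcat
C4A: atgAatatgcat
G3C: atCcatatgcat
T6G: atgcaGatgcat
T2G: aGgcatatgcat
T2A: aAgcatatgcat
C4G: atgGatatgcat
G3A had a private site at 3422 of 5113 copies (66.9%), A1T at 60.7% of 1042, C4A at 57.2% of 1487 and G3C at 45.7% of 733. At the other end T6G had one at 18 of 674 copies (2.67%), T2G at 5.11% of 607, T2A at 5.57% of 808 and C4G at 8.91% of 954. None of the 18 reached the level of the exact copies. Pooled over the 3 bases, changes at position 3 left 55.5% of copies occupied, but the single variants there ran from 20.7% to 66.9%, and G3A made up 5113 of the 7312 copies. Changes at position 4 left 32.03%, with variants from 8.91% to 57.2%. Changes at position 2 left 8.19%, with variants from 5.11% to 24.4%, and changes at position 6 left 8.52%, with variants from 2.67% to 9.24%. The pooled values thus depend on which base was put in and on how common each variant is. C4A stood apart in another way, as 79.2% of its copies had some Oct4 S151M summit, so that more of its occupied copies were shared than for G3A, which had any summit at 69.9%. The variants also differ in how often they fall in repeats, from 17.5% of A5T copies to 88.4% of C4T copies, and the part of this in their occupancy was not tested.

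**Figure D1:**
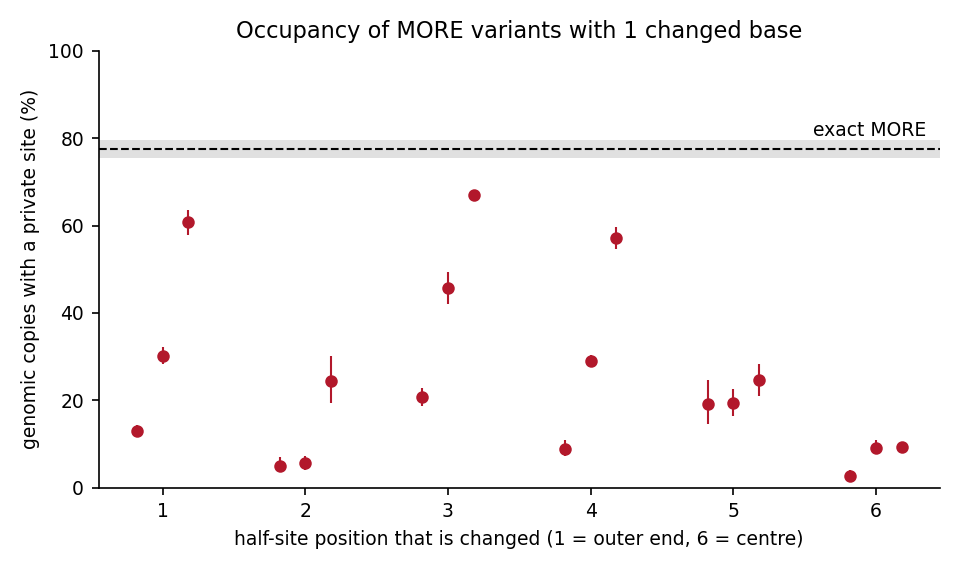
Each point is 1 of the 18 variants of MORE with a single changed base, placed by the half-site position that is changed (1 is the outer end, 6 the centre), and the y axis is the percent of its genomic copies with a private site, with Wilson 95% intervals. The dashed line and grey band are the exact copies at 77.5% and their interval, and the highest variants, at positions 1, 3 and 4, lie between 57.2% and 66.9%.

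The base between the half-sites of MORE+1 also separated the copies, a comparison chosen after its values had been seen. Exact copies with A or T in the gap, printed as atgcataatgcat on 1 of their strands, had a private summit at 211 of 248 positions (85.1%). Copies with C or G there, atgcatcatgcat, had one at 42 of 165 (25.5%). The gap base thus separated them by 59.6 points (50.9 to 66.8). Where the first half-site carried C4A, 76.1% of the 289 copies of atgAataatgcat and 78.4% of the 245 copies of atgAattatgcat had a private summit, against 30.3% of the 109 copies of atgAatcatgcat and 25.6% of the 160 copies of atgAatgatgcat.

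Private sites counted as lacking a POU element still held sequences close to MORE. When 2 mismatches were allowed, MORE or MORE+1 was found at 36764 private sites (44.8%, 44.5 to 45.1), at 23.1% of shared sites and at 3.49% of the windows 2 kb away. Among the 64884 private sites without a POU element by the stricter search, 35.7% had such a match, 18.1% of the corresponding shared sites had one, and 3.43% of the windows 2 kb from these private sites. An open search of all 8-base words in the 50 bp to each side of these 64884 sites, added after the data had been seen, gave words of the same family. TATGCATA was in 7.02% of the sites and 0.311% of the windows 2 kb away, a ratio of 22.5, ATATGCAT in 14.5% and 0.671%, CATATATG in 6.66% and 0.377%, and CATACATA in 16.7% and 1.03%. All words were ranked by that ratio among those present in at least 0.5% of the sites, and each is counted together with its reverse complement.

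The strongest site without a POU element is an extreme of its class, whose median fold enrichment was 6.58, and is given as an example only. It lay in a soft-masked stretch of an intron of Srebf2, the gene of a regulator of cholesterol synthesis, with a fold enrichment of 145 and the nearest summit of another library 3686 bp away. The next lay 1400 bp from the start of Pld6 at 123, and the third in an intron of Cacna2d2, the gene of a calcium channel subunit, at 121. Their central 61 bases, printed with no capitals because no element was matched, were as follows.
Srebf2 intron, chr15:82200727-82200787: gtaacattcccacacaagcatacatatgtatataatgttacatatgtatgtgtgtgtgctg
Near Pld6, chr11:59789012-59789072: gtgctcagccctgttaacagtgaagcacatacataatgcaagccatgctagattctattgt
Cacna2d2 intron, chr9:107417187-107417247: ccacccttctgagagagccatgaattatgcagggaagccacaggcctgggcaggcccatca

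Fold enrichment differed by element. It had a median of 6.94 over all private sites, with quartiles at 5.20 and 11.2 and a range of 2.37 to 146. Private sites with an exact MORE+1 had the highest median at 17.1 (interval of the median 15.2 to 19.3), followed by exact MORE at 13.6 (12.9 to 14.4), MORE or MORE+1 with 1 mismatch at 9.80 (9.69 to 10.1), the octamer alone at 6.89, sites without a POU element at 6.58, PORE at 6.11 and SoxOct without MORE at 6.06. The intervals of the first 3 do not overlap each other, whereas those of PORE and SoxOct do. Sites with 1 match to MORE or MORE+1 had a median of 10.1, those with 2 of 10.6, and the 111 sites with 3 of 16.8.

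A shared site also had a summit in another, shorter list, so the rule may favour strong sites there, which was not tested. Shared sites had the higher median in every motif class. Over all of them it was 8.97 with a range of 2.37 to 163, and 61.5% of them lay at or above the median of the whole library against 47.3% of the private sites, a difference of -14.2 points (-14.9 to -13.4). With an exact MORE the median was 62.4 for the 103 shared sites against 13.6 for the 1216 private ones. At the top, 58 private and 233 shared sites had a fold enrichment of at least 100, and of the 1000 summits with the highest score 33.2% were private. Of the 8216 strongest, as many as the Oct4 list of day 1 holds, 61.3% were private.

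**Figure D2:**
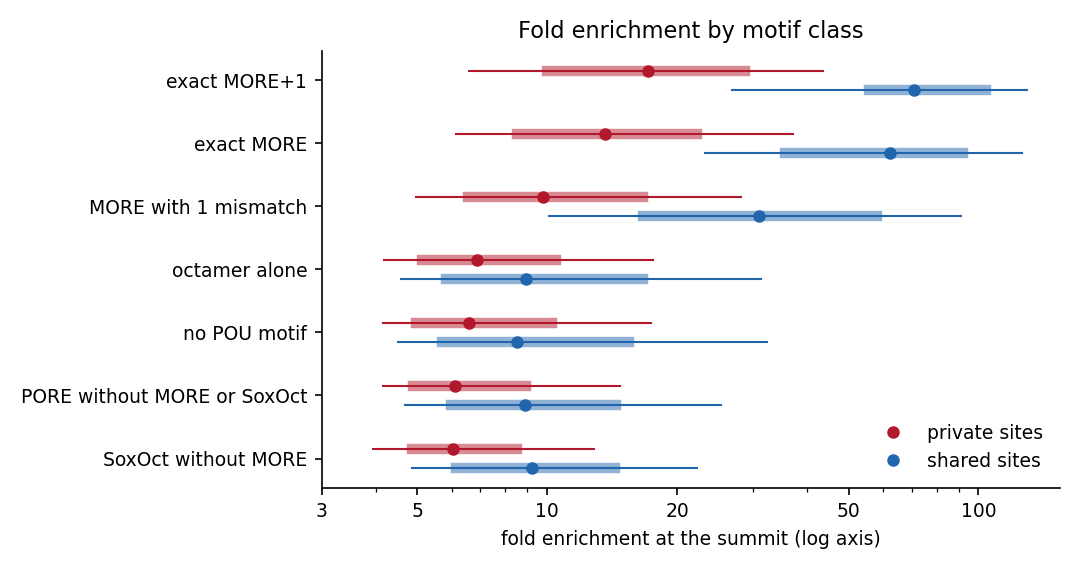
Fold enrichment at the summit on a log axis for private (red) and shared (blue) Oct4 S151M sites in 7 exclusive motif classes. Dots are medians, thick bars run from the lower to the upper quartile and thin lines from the 10th to the 90th percentile, and the private medians go from 17.1 for exact MORE+1 down to 6.06 for SoxOct without MORE.

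Among private sites the share with MORE followed the enrichment. In the lowest decile of all Oct4 S151M summits by fold enrichment 5.06% of the private sites had MORE or MORE+1, in decile 5 11.6%, and in the highest decile 31.6% (30.5 to 32.7). Shared sites stayed between 0.192% and 1.04% up to decile 6 and reached 20.8% (19.5 to 22.2) in the highest. The private share was above the shared one in all 10 deciles. SoxOct went the other way among private sites, from 2.02% in the lowest decile to 0.834% in the highest, and was more frequent at shared than private sites in every decile. With 2 mismatches allowed, MORE or MORE+1 was at 67.1% of the private sites of the highest decile and at 25.01% of those of the lowest.

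**Figure D3:**
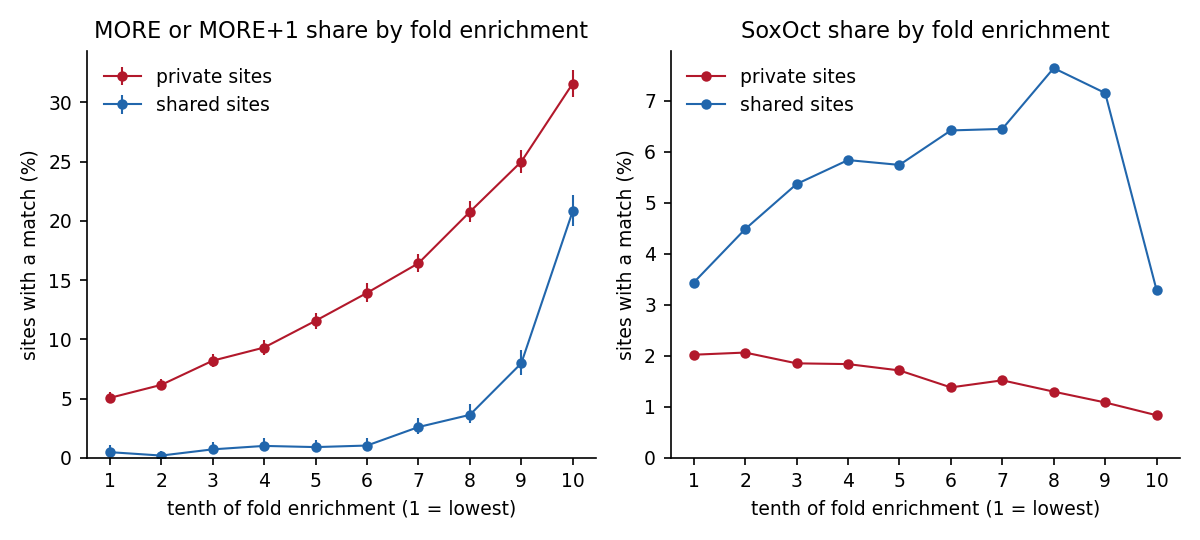
Percent of private (red) and shared (blue) Oct4 S151M sites with MORE or MORE+1 (left, with Wilson 95% intervals) and with SoxOct (right) in each decile of fold enrichment of all Oct4 S151M summits. MORE at private sites goes from 5.06% to 31.6%, and SoxOct at private sites from 2.02% to 0.834%.

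MORE also sat close to the summit. For exact MORE or MORE+1 the median distance between the centre of the motif and the private summit was 13.5 bp, and 65.7% of 1468 sites had it within 20 bp. With 1 mismatch the values were 17 bp and 56.3%. For SoxOct without MORE the median was 31 bp, with 34.1% of 1201 sites within 20 bp, and for the octamer alone 29.5 bp with 36.2% of 3689. Shared sites with an exact copy had a median of 6.5 bp, shorter than that of the private sites, and were also the more enriched.

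**Figure D4:**
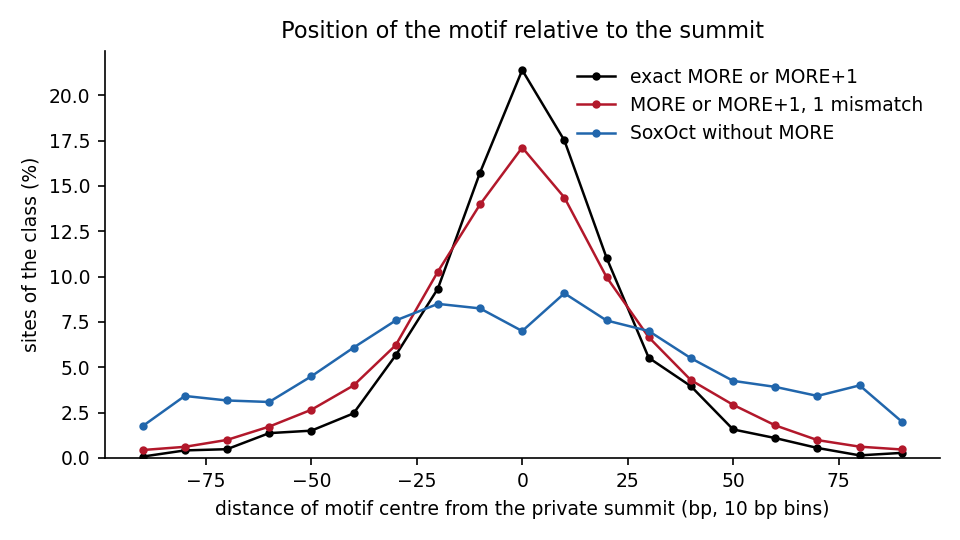
Percent of the private sites of each class by the distance of the motif centre from the summit in 10 bp bins, for exact MORE or MORE+1 (black), the same with 1 mismatch (red) and SoxOct without MORE (blue). The central bin holds 21.4% of the exact class and 17.1% of the class with 1 mismatch, whereas SoxOct is spread with 6.99% there.

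The elements of other factors were nearer to background at private than at shared sites. Shared sites are by the rule those near a summit of the other POU and Sox2 lists. These contrasts are thus not independent of the rule, and its part in them was not tested. AP-1 (TGAGTCA), the element of Fos and Jun dimers, was at 6.401% of private sites, 13.4% of shared sites and 3.36% of windows 2 kb away. The single Sox element CCATTGT was at 3.81%, 8.87% and 3.35%, RUNX (TGTGGTT) at 5.12%, 7.55% and 4.73%, TEAD (CATTCCA) at 3.67%, 5.39% and 3.37%, and KLF (GGGTGTGG) at 1.48%, 2.75% and 1.17%. In all windows of the genome the shares were 3.12% for AP-1, 3.53% for Sox, 4.69% for RUNX, 3.28% for TEAD and 1.17% for KLF. The private share was below the shared share for each of the 5, with differences from -1.27 points for KLF (-1.52 to -1.03) to -6.96 points for AP-1 (-7.48 to -6.45). Private sites were also richer in A and T, with a mean GC content of 36.4% in the 201 bp window against 38.4% at shared sites and 41.7% over the genome.

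The closest counterpart is the other Oct4 mutant. Chosen by the same rule, Oct4defSox2 at day 1 had 11573 private sites among 31060 summits, and MORE or MORE+1 was at 28 of them (0.242%, 0.167 to 0.349), against 0.341% of the windows 2 kb from those sites. Since the rule removes every Oct4defSox2 summit near an Oct4 S151M summit, and Oct4 S151M had a summit at 84.4% of exact MORE copies, the rule itself takes most occupied MORE copies out of this set. The low share of MORE there is therefore a description and no result about Oct4defSox2, which over all its day 1 summits had one at 94 exact MORE copies. No private Oct4defSox2 site had an exact MORE, for which 3 counts would be a share of 0.0259%. The other elements are subject to the same exclusion. For SoxOct the private sites of the 2 mutants were 1.59% and 1.68%, a difference of -0.0882 points whose interval, -0.352 to 0.147, includes 0. AP-1 was at 13.6% of the Oct4defSox2 private sites, and the private sites of Oct4 S151M differed from that by -7.23 points (-7.89 to -6.60). The 8458 Oct4 S151M sites that had an Oct4defSox2 summit at day 1 and no Oct4 summit on any day had MORE or MORE+1 in 6.05% of cases, which the private sites exceeded by 8.20 points (7.62 to 8.74).

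The distance to the nearest summit of another library is the value that the rule used, with those up to 100 bp excluded. Among private sites it had a median of 8582 bp, and no expected distance was computed. The share with MORE was 4.02% among private sites with another library's summit at up to 250 bp, 9.05% from there to 1000 bp, 14.1% to 10000 bp, 16.3% to 100000 bp and 21.6% beyond. These steps divide the sites further by the distance that the rule used. They are a description and not a trait independent of the rule. Next to the threshold of the rule, the 1185 private sites with a neighbour at up to 125 bp had a median fold enrichment of 6.74 and MORE at 3.797%, and the 1674 shared sites with one at 76 to 100 bp had 6.94 and 3.52%. Of all private summits 93.0% were the only summit of their peak and 2.04% lay in a peak that also held a shared summit. Their peaks had a median width of 345 bp, against 459 bp for shared sites.

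Private sites lay mostly in introns and between genes. Introns held 48.9% of them and sequence between genes 46.5%, while these classes make up 39.7% and 54.8% of the known bases. Only 2.07% lay within 1 kb of the start of a coding transcript, near the 2.03% of bases in that class and below the 2.97% of shared sites, a difference of -0.902 points (-1.17 to -0.650). Coding exons held 226 private sites (0.275%) against 1.16% of bases. MORE was at 7.85% of the private promoter sites and at 15.4% of those between genes, and by distance to the nearest coding start its share went from 7.85% within 1 kb to 16.9% beyond 500 kb. The median distance to a coding start was 61350 bp for private and 61592 bp for shared sites.

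**Figure D5:**
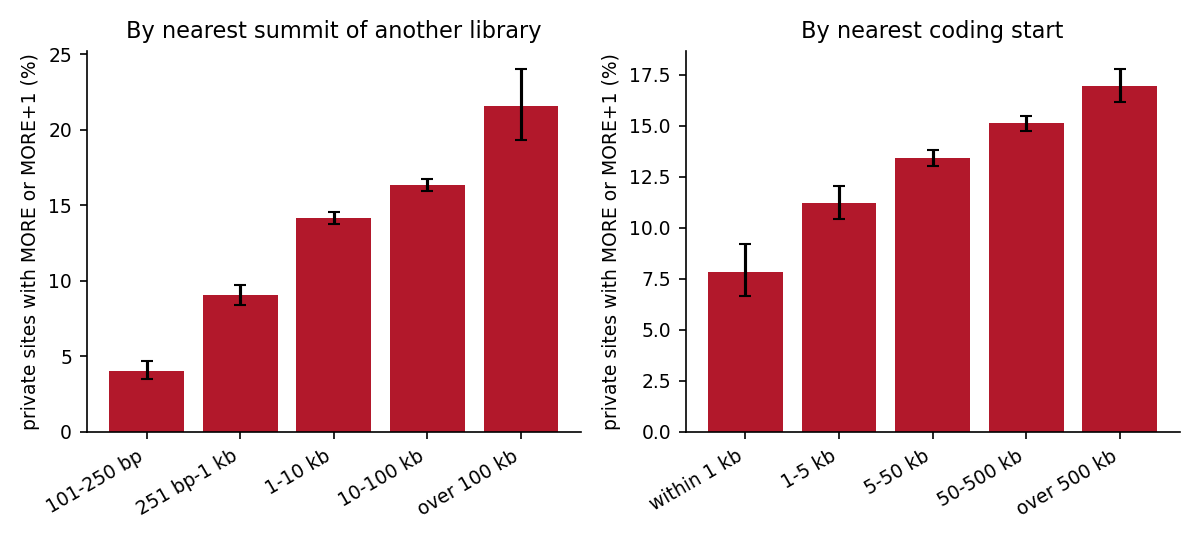
Percent of private sites with MORE or MORE+1, with Wilson 95% intervals, by the distance to the nearest summit of another library (left) and to the nearest coding transcript start (right). Both sets of bars increase with distance, from 4.02% to 21.6% on the left and from 7.85% to 16.9% on the right. The distance on the left is the value that the rule used to choose the sites.

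Private sites lay in repeats more often than shared sites. The base at the summit was soft-masked at 36.3% of private sites, 20.9% of shared sites and 36.4% of all known bases, a difference between private and shared sites of 15.4 points (14.7 to 16.1). Among the private sites 61.5% of those with an exact MORE, 49.4% of those with 1 mismatch, 24.2% of those with an exact MORE+1 and 34.5% of those without a POU element were soft-masked. MORE was at 19.7% of soft-masked and 11.2% of other private sites, and outside soft-masked sequence its share was still above the 4.79% of the shared sites there. Reads of low mapping quality had been removed, and the part of this in these shares was not tested.

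The 3 strongest private promoter sites were at Itsn2, the gene of an endocytic scaffold protein, with a fold enrichment of 126 at 806 bp from a start, at Max, the gene of the partner of Myc, with 107 at 878 bp, and at Dctn6, the gene of a dynactin subunit, with 91.1 at 69 bp. The Itsn2 site was also among the 6 strongest of all private sites, with Gnb1 at 146, Srebf2 at 145, Rims2 at 132, Pcf11 at 132 and Tent4b at 130.3, all of which lay in introns. All but the Srebf2 site held MORE or MORE+1 with 1 mismatch, and at Rims2 it lay at -73.5 bp from the summit, the farthest of these. The first is printed with its element in capitals, together with the strongest private sites with SoxOct and with the octamer alone, for comparison.
Gnb1 intron, MORE+1 with 1 mismatch, chr4:155533262-155533314: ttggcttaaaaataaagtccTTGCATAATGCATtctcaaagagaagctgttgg
Intergenic, SoxOct with 2 mismatches, chrX:12640005-12640059: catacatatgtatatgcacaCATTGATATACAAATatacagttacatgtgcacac
Apoh intron, octamer, chr11:108410382-108410429: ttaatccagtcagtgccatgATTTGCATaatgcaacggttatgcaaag
The SoxOct site had a fold enrichment of 69.1 and the octamer site 106, with the octamer on the minus strand. Both printed stretches also held a sequence with 2 mismatches to MORE or MORE+1. It was atacatatgtat at the SoxOct site and ttgcataatgcaa, which overlaps the octamer, at the Apoh site. The motif classes allow 1 mismatch in MORE, so neither site was counted with it. Which element was bound was not tested.

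The strongest sites with PORE lay near Inhba, the gene of an activin subunit, at 89.6, in an intron of Acyp2 at 61.9 and between genes on chromosome 4 at 59.9, each with 2 mismatches and with the element centred at 50, -89 and 46 bp from the summit. Next to the Apoh site, the octamer sites were in introns of Fcho1 at 85.6 and Smoc1 at 81.7. The other SoxOct sites were in introns of Wdfy4 and Lingo2, both at 56.5, and the latter had a summit of another library at 120 bp.

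Private sites lay on every chromosome, with 30.99 per Mb of known sequence in all and between 24.8 on chromosome 7 and 38.0 on chromosome 10 among the autosomes. The X chromosome had 19.5 per Mb and Y only 6 sites. Autosomes 1 to 19 had a private share of 79.5% to 83.0% of their summits, and X had 87.6%. In 2613 bins of 1 Mb the median was 32 private sites, with 13 at the 10th and 48 at the 90th percentile and at most 79. The counts of private and shared sites per bin were correlated over these 2613 bins (Spearman's rho 0.72), which share the library, its depth and the mappable sequence, whereas the correlation with coding gene starts was -0.066. Autosomal bins without a coding start had 30.5 private sites per Mb, those with 1 to 5 had 36.1, those with 6 to 20 had 33.0 and those with more than 20 had 24.8. Shared sites had the same order, with 8.86 per Mb in bins with 1 to 5 starts and 5.24 in those with more than 20.

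Neighbouring private sites were counted at several distances. Another private site lay within 5 kb of 29603 private sites (36.1%, 35.8 to 36.4), within 1 kb of 10.9% and within 10 kb of 55.4%, with a median distance of 8393 bp. Linking sites up to 5 kb apart left 52445 sites alone and gave 9992 pairs, 2196 groups of 3, 499 of 4 and 191 of 5 to 8. MORE was less frequent in larger groups, at 15.4% of single sites, 12.8% of pairs and 10.4% in groups of 5 or more, and fold enrichment had medians of 6.94, 6.94 and 6.61. Of the 5 groups of 8, the longest size found off chromosome 18, the pair with the strongest members were a stretch of 22853 bp in Sbf2 on chromosome 7, where fold enrichment ran from 4.33 to 79.0 and no site had an exact or near MORE, and one of 18461 bp over Trpm7 and Usp50 on chromosome 2, where it ran from 3.71 to 61.6 and 1 site had MORE. Neither was a block of uniform enrichment, since 1 site was well above the other 7 in both.

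Most genes had a private site near a start. Of 21851 protein-coding genes, 85.9% had a private site within 50 kb of a transcript start, 30.96% had one with MORE or MORE+1, 4.59% had one with an exact MORE or MORE+1, and 7.55% had a private site within 1 kb of a start. The median gene had 3 private sites within 50 kb, the 90th percentile was 6, and 479 genes (2.19%) had 10 or more. Pde4d, the gene of a cAMP phosphodiesterase, had 55 private and 12 shared sites, the forkhead factor gene Foxp1 34 and 9, the ankyrin gene Ank2 31 and 3, and Psd3 30 and 10. Sites near any start of a gene were counted, so genes with several distant starts cover more sequence. Per 100 kb of gene body Pde4d had 6.39 private sites, Foxp1 6.86, Ank2 5.89 and Psd3 5.55. Map2, the gene of a neuronal microtubule protein, had 27 private sites in a body of 267 kb, or 10.1 per 100 kb against 3.10 over the genome. Mecom had 27, March1, Pde4b and Prkg1 26 each, Zbtb20 24, and Mid1, Palld and Ptprd 23 each, as many as Tcf4.

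Inside gene bodies, which held 47.9% of the private sites, the highest counts were in bodies of over 1000 kb. Macrod2 had 126 private sites over 1998 kb, Lsamp 105 over 2197 kb, Pde4d 96 over 1504 kb and Ptprd 95 over 2271 kb, which is 4.18 to 6.39 per 100 kb. They were followed by Gm20388 with 91, Cntnap2 and Dmd with 88, Fgfr2 with 85, Dlg2 with 82, Pcdh15 with 76, Lrrc4c with 70 and Prkg1 with 69. The annotation used here extends Gm20388 over 4435 kb and Fgfr2 over 2961 kb, across other genes, so that their counts are those of the models and come to 2.05 and 2.87 per 100 kb, below the 3.10 of the genome. Cntnap2, Dscam and Lsamp had the most exact MORE or MORE+1 sites with 4 each, and Agbl1, Csmd1, Csmd3, Ctnna3, Dlg2, Kcnt2, Lrrc4c and Pde4d had 3. Arhgap15 was the first by symbol of the genes with 2. In Dscam, the gene of a cell adhesion molecule, 10 of 25 private sites had MORE or MORE+1.

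The 8 gene lists are read beside the 85.9% of all coding genes with a private site within 50 kb of a start and their median of 3. Of the naive pluripotency genes 17 of 20 had a private site within 50 kb (median 2.5 sites), with Dppa3, Klf5 and Zfp42 at 5 each and none near Sox2, Esrrb and Dppa5a. The strongest near Zfp42, a marker of naive pluripotency, had MORE with 1 mismatch and a fold enrichment of 20.6. Of the epithelial genes 13 of 15 had one (median 3), with Dsp, Krt18 and Krt8 at 5 each, and a site of 70.2 in Dsp, the gene of desmoplakin. All 14 mesenchymal transcription factor genes had one, with a median of 6.5, the highest of the 8 lists and above the 3 of all genes. Tcf4 had 23, Runx2 12 and Prrx1 10, and 4 of the 14 had one with MORE or MORE+1. The strongest there were in the body of Twist2 with 55.3, which had MORE with 1 mismatch, and near Prrx2 with 51.2.

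Of the AP-1 genes 9 of 10 had a private site (median 3.5), with Jun at 6 and Atf3 and Fosl1 at 5, and the strongest was 12171 bp from Fos at 94.8. All 14 TGF-beta pathway genes had one (median 3.5), with the receptor genes Tgfbr1 at 8 and Tgfbr3 at 7 and the repressor Skil at 6. Of the fibroblast matrix genes 13 of 14 had one (median 4.5), with the collagen gene Col1a2 at 11, Postn at 9 and Fbn1 at 7. Of the neural progenitor genes 12 of 14 had one, with the lowest median, 1, and with Neurog2 at 5 and Sox3 at 3. All 14 genes of the POU family had one (median 3), with Pou2f1 at 10, Pou1f1 at 8 and Pou3f1, the gene of Oct6, at 6, of which 2 had MORE or MORE+1. Near Pou5f1, the gene of Oct4, 3 private sites were found, the strongest 39849 bp from a start with 25.04 and no POU element. Private sites with MORE or MORE+1 lay near 7 of the 20 naive pluripotency genes, 8 of 15 epithelial, 2 of 10 AP-1, 6 of 14 TGF-beta pathway, 5 of 14 matrix, 3 of 14 neural progenitor and 3 of 14 POU family genes, beside the 30.96% of all coding genes. With 10 to 20 genes a list and differing gene lengths, these counts are descriptions, and nothing particular to a list is read from them.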

How the data were processed

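Peak summits of 13 ChIP-seq libraries were analysed. The 3 input libraries, reads and coverage were not used here. According to the study's methods and the submitters' processing notes, the authors aligned reads to mm10 with Bowtie2 2.2.5, removed low mapping quality and duplicate reads with SAMtools and called peaks and summits with MACS2 at a p-value limit. The score of a summit, as deposited, is the −log10 p-value of MACS2. The peak table deposited for Oct4 S151M also gives a fold enrichment over the local background, a ratio, and −log10 p and q-values. Read depth is not in these files. Library depth and the factor cannot be told apart as sources of list length. Scores of Oct6 M151S start at 2.30 and those of the other lists at 4.00 to 4.12, and its day is 1 by title and 2 by another label.

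Groups came from the sample titles, 1 library each, so no p-value was computed. The members and gene lists were chosen with earlier results of these data known. Summits were placed on GRCm38.p6 (RefSeq, soft-masked) with the GENCODE M21 basic annotation, and 0 lay past a chromosome end. A site was private when no other list had a summit within 100 bp. Motifs were matched as letters on both strands, wholly inside 100 bp to each side of the summit. Shares have Wilson and differences Newcombe 95% intervals, and a difference was past counting error where its interval excluded 0. Medians have order-statistic intervals. Named sites were, off chromosome 18 and 1 kb apart, the 6 most enriched, the 3 most enriched per motif class and near coding starts, and, of the chains tied for most sites, the pair with the strongest member. Named genes were, off chromosome 18 and with ties taken by symbol, the 12 with most private sites within 50 kb of a start (1 per 500 kb), in the body, and with exact MORE or MORE+1 in the body, and, on any chromosome, the first 3 of each list. A gene that the rule names is not reported here. Further genes of the lists named with their strongest site were chosen after their values were seen.

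Python 3.11.15 with numpy 2.4.6, pandas 2.3.3, numba 0.67.0 and matplotlib 3.10.9 was used. Motif search, sharing and intervals were tested on simulated data. Alternatives were other sharing distances, lists and score limits, 1 summit per peak, whole peaks, stricter and looser motifs, a window of 50 bp, quartiles of enrichment, equal numbers, and other distances for promoters, clusters and genes.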

Additional observations from a re-analysis of the deposited data

How the results depend on the processing

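All 109 alternatives were run, and 91 kept the direction and stayed on the same side of the limits. The excess of MORE at private over shared sites kept its sign and an interval without 0 in 17 of 17, also within every quartile of fold enrichment. So did the lower SoxOct share (14 of 14) and promoter share (12 of 12). The higher repeat share (7 of 7) and the lower share at or above the median enrichment (6 of 6) did too. Taking as many of the strongest private sites as there were shared sites favours the MORE, SoxOct and repeat differences by construction. Every alternative still divides the sites by nearness to the other lists, so none bears on what that division gives in advance. The share without a POU element turned around, from -0.891 points to 0.893 with a sharing distance of 50 bp and to 3.65 with the stricter motif match, so that difference has no stable sign. The cause was not tested. The clustered share, 36.1%, was 38.0% and 34.1% with sharing distances of 50 and 250 bp, 29.6% with a score of at least 10, 32.1% with 1 summit per peak, 33.7% with whole peaks, 10.5% for the strongest private sites in a number equal to the shared ones, 18.96% at a cluster distance of 2 kb and 55.4% at 10 kb. Exact MORE and MORE+1 copies with a private site, 74.2%, were 71.1% with a score of at least 10, 68.1% in a window of 50 bp and 30.3% with up to 1 mismatch. Genes with a private site, 85.9%, were 86.6% with a sharing distance of 50 bp, 82.3% with a score of at least 10, 85.4% with whole peaks, 45.4% within 10 kb and 93.8% within 100 kb. No paired analysis was possible because each group had 1 library. The data hold 1 library of Oct4 S151M, so the spread between cultures is unknown, and a site absent from a shorter list may be bound there below its threshold.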
